A study of Mus musculus with 46 samples.

Results

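Heat shock and stress genes were described in single oriens lacunosum-moleculare (OLM) interneurons of the mouse, the somatostatin cells of the hippocampus whose axons reach the outer dendrites of pyramidal cells. The set holds 10 of the 22800 genes in the count table and was taken from a list of names: Hspa1a, Hspa1b, Dnajb1, Hsph1 and Hsp90aa1 as stress-inducible chaperones, Hspa8, Hsp90ab1 and Hspa5 as constitutive chaperones, and Gadd45b and Atf4 as stress regulators. All 10 genes were in the table, and 9 of them passed a minimum mean of 0.5 on the log2(CPM + 1) scale, where CPM is the count of a gene per 1000000 counts of the cell. The exception was Hspa1b.

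Chaperones bind unfolded stretches of other proteins and keep them from clumping. Constitutive members are made at all times, while heat, oxidation or damaged protein releases heat shock factor 1, which binds heat shock elements in the promoters of inducible members. Proteins that fold in the endoplasmic reticulum have a separate system, the unfolded protein response, in which Hspa5 is the main chaperone and Atf4 one of the transcription factors.

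The cells came from mice of 2 Cre driver lines aged P21-P30, with 23 cells from the Sst line and 23 cells from the Htr3a line, and each deposited library is the cytosol of 1 cell drawn into a patch pipette. Sst-Cre marks cells that make or made somatostatin, and Htr3a-Cre marks cells with a history of the serotonin receptor gene Htr3a. All 46 cells were labelled as OLM cells that had passed quality control, and no treatment, heat exposure or second genotype is given in the labels for either line. No label ties a cell to an animal, so each line counts as 1 sample here: differences between lines carry no p-value, and the SD given is the spread between cells.

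Total counts had a median of 16726879 per cell in the Sst line (5639490 to 31386369) and 15336981 in the Htr3a line (3391829 to 26136222). Fewer genes had a read in the Sst line, where the median was 6569 genes (3225 to 8774), against 8169 genes in the Htr3a line (3350 to 12693). Every cell of both lines held reads of Sst, Gad1 and Gad2, which define somatostatin-positive inhibitory neurons, while Chrna2, a marker of OLM cells, was read in 6 cells from the Sst line and 10 from the Htr3a line. Microglial transcripts were common: the summed CPM of 9 microglial genes had a median of 774 in the Sst line (0.0536 to 10876) and 448 in the Htr3a line (0 to 8443). Of the endothelial markers, Kdr was at 0 in every cell and Pecam1 had reads in 5 cells from the Sst line and 7 from the Htr3a line. Among glutamatergic markers, Slc17a7 had reads in 0 cells from the Sst line and 2 from the Htr3a line, and Camk2a in 17 and 14. The summed CPM of 7 oligodendrocyte genes had a median of 196 over Sst-line cells (0.473 to 5318) and 114 over Htr3a-line cells (0.144 to 13314).

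2 cells of the Htr3a line stood apart. Replicates 4 and 20 held 4 and 24 Gad1 reads, against at least 1634 in each of the other 44 cells. They were also the lowest Htr3a-line cells for Hsp90ab1, at 145 CPM in replicate 4 and 15.6 CPM in replicate 20. Replicate 20 had the lowest Hspa8 of all cells, at 167 CPM, but 1637 CPM of Hsp90aa1. Replicate 4 had the lowest Hsp90aa1 of all cells, at 61.8 CPM, and the highest Hsph1, at 1378 CPM. Line differences of most members and part of the co-variation are also given without these cells. Values given only once include them.

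Promoter sequences are shown for the elements through which these genes are known to be induced. RefSeq promoter sequences on build GRCm38.p6 were found for 7 of the 10 genes and searched on both strands, over the 250 bases before the start site, for a paired heat shock element unit (GAANNTTC or its alternate form TTCNNGAA) and for the endoplasmic reticulum stress element. The first is shown for the Hspa1a and Hspa1b promoters and for Hsph1, the second for Hspa5, with the matched letters in capitals and each sequence written 5′ to 3′ on the strand of the gene.
Hspa1a, chr17:34972228-34972285, minus strand: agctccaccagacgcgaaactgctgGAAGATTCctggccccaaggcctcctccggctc
Hspa1b, chr17:34959310-34959367, minus strand: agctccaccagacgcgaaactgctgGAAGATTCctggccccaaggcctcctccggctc
Hsph1, chr5:149636351-149636380, minus strand: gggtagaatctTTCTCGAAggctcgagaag
Hspa5, chr2:34772020-34772048, plus strand: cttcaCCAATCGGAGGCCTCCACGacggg

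The Hspa1a and Hspa1b matches lay 104 to 97 bases before the start, in windows of 58 identical bases, and the 250 upstream bases of both genes differed at 3 positions. The Hsph1 match lay 54 to 47 bases before the first RefSeq start and 33 to 26 bases before the second. The Hsph1 and Hspa5 stretches lie at the 5′ end of the GENCODE M21 gene, whose first annotated base lies upstream of the RefSeq start, and are kept short here. Of all 32851 RefSeq promoters of the same length, 12.8% held the paired unit, so a match is common. The endoplasmic reticulum stress element of Hspa5, 65 to 47 bases before the start, was found in 0.113% of promoters. The paired unit was not found in the searched windows of Dnajb1, Hspa5, Gadd45b and Atf4. A match describes letters only and was not linked to binding in these cells.

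Hspa1a and Hspa1b, near-identical genes for the inducible cytosolic HSP70, were without a read or low in most cells. Hspa1a was read in 10 of 23 Sst-line cells (43.5%, 95% Clopper-Pearson interval 23.2% to 65.5%) and in 12 of 23 Htr3a-line cells (52.2%, 30.6% to 73.2%). In the Sst line its level had a lowest value of 0, a median of 0 and a highest value of 232 CPM, and in the Htr3a line a lowest value of 0, a median of 0.181 and a highest value of 113 CPM. All 10 Sst-line cells with a read were above 10 CPM, as were 8 of the 12 Htr3a-line cells. The ranges of the lines overlapped, and most cells of both lines lay at or near 0.

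Counts of Hspa1a added over cells gave 34.2 CPM in the Sst line (95% Poisson interval 33.6 to 34.8) and 20.1 CPM in the Htr3a line (19.6 to 20.6), a log2 ratio of 0.74. Single cells carried much of this. Without replicate 3 of the Sst line the Sst sum was 24.2 CPM and the ratio 0.26, and without replicate 7 of the Htr3a line the Htr3a sum was 15.8 CPM and the ratio 1.07. The mean log2(CPM + 1) was 2.54 ± 3.04 for Sst-line cells and 2.28 ± 2.73 for Htr3a-line cells (SD, n = 23 cells each), a difference of 0.26 that lies far inside the spread between cells. It was 0.046 without Htr3a-line replicates 4 and 20. By medians over cells the difference was -0.24, of the other sign.

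Hspa1b was read in 3 cells from the Sst line and 5 from the Htr3a line, with highest values of 24.9 and 35.5 CPM. All 8 cells with Hspa1b also held Hspa1a, 14 cells held Hspa1a alone, no cell held Hspa1b alone (0 of 46) and 24 held neither. Of the 31-base words in Hspa1b exons, 67.6% also occur in Hspa1a, and of those in Hspa1a 63.8% occur in Hspa1b. How reads that fit both genes were counted is unknown from the labels, so the pair is better read as 1 signal than as separate genes. Hspa1b lies at chr17:34956436-34959238 and Hspa1a at chr17:34969190-34972156, both on the minus strand, and gene positions are on GRCm38 throughout. Hspa1a also overlaps Gm20481 on the other strand, and the strand setting of the counting is not stated.

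Dnajb1 (chr8:83608193-83612653, plus strand), the J-domain protein that hands substrates to HSP70 and speeds its ATP cycle, was read in 18 cells from the Sst line and 21 from the Htr3a line. The Dnajb1 level ran over 0, 73.6 and 320 CPM (lowest, median, highest) across Sst-line cells and over 0, 152 and 452 CPM across Htr3a-line cells. The Sst line thus had the lower median, with full overlap of the lines. The difference in mean log2(CPM + 1) was -0.91, with 5.36 ± 3.05 for Sst-line cells and 6.26 ± 2.33 for Htr3a-line cells. The summed counts were closer, at 114 and 146 CPM, a log2 ratio of -0.36. The sign held when any 1 cell was left out (-1.19 to -0.66), and the mean difference was -1.12 without Htr3a-line replicates 4 and 20. It was -1.19 after thinning to 5000000 reads, which left out the shallow Htr3a-line replicate 20. Leaving out only that replicate also gave -1.19. With a pseudocount of 10 it was -0.51.

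Hsph1 (chr5:149614287-149636376, minus strand), a large HSP110 chaperone that acts as a nucleotide exchange factor for HSP70, was read in 21 cells from the Sst line and 22 from the Htr3a line. The Hsph1 level ran over 0, 266 and 892 CPM across Sst-line cells and over 0, 168 and 1378 CPM across Htr3a-line cells. The mean difference was 0.18 and turned to -0.14 without replicate 20 of the Htr3a line. Thinning to 5000000 reads, which also left out replicate 20, gave -0.16. Without Htr3a-line replicates 4 and 20 the difference was 0.021. No direction is given for Hsph1 on this scale.

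Hsp90aa1 (chr12:110690605-110702728, minus strand), the stress-inducible cytosolic HSP90, did not behave like the other inducible genes. It was read in all 46 cells, over 693, 1378 and 1804 CPM across Sst-line cells and over 61.8, 1576 and 2477 CPM across Htr3a-line cells. The means of log2(CPM + 1) were 10.28 ± 0.44 for Sst-line cells and 10.28 ± 1.10 for Htr3a-line cells, a difference of -0.000336. Without replicates 4 and 20 the Htr3a-line SD was 0.59 and the difference -0.19, and the lowest Htr3a-line cell stood at 567 CPM. Of the exon words of Hsp90aa1, 46.7% are shared with Gm12346, so its counts may depend on how such reads were handled.

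**Figure D1:**
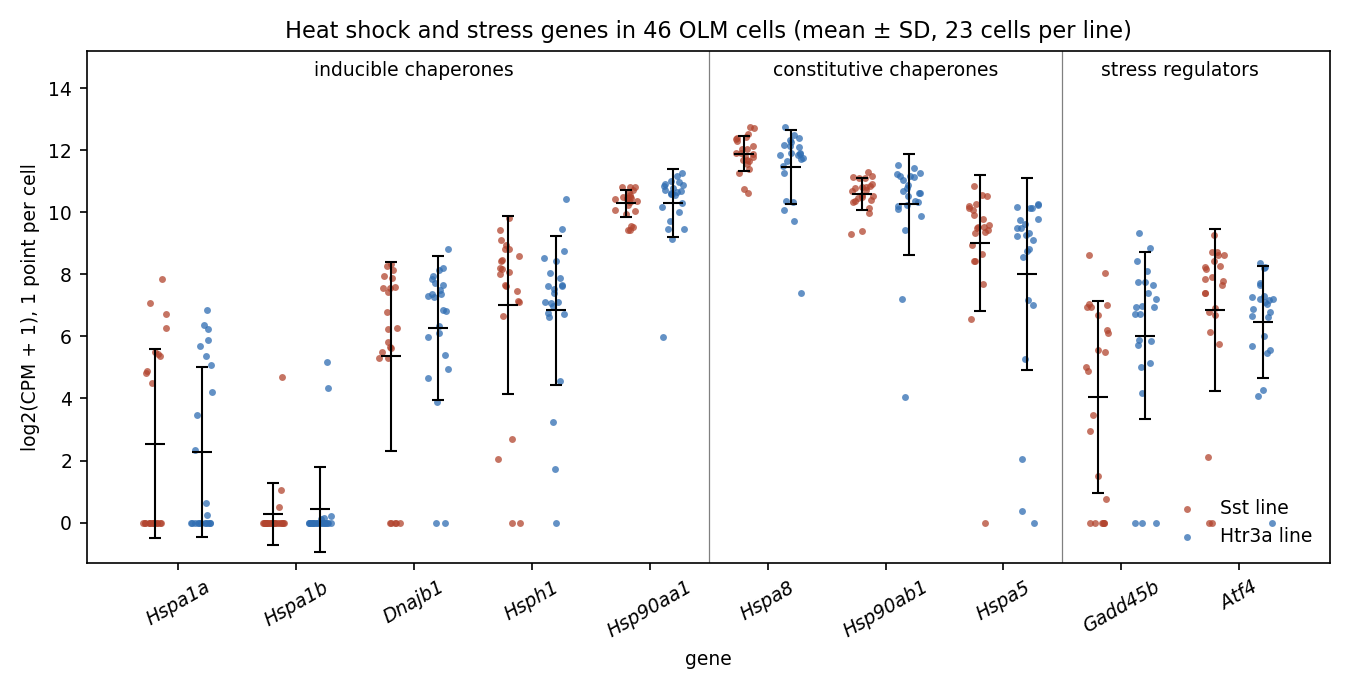
Level of each gene on the log2(CPM + 1) scale in 23 Sst-line cells (red, left) and 23 Htr3a-line cells (blue, right), with 1 point per cell, a horizontal mark at the mean and bars of 1 SD. Hspa8, Hsp90ab1 and Hsp90aa1 are read in all 46 cells, Hspa1a in 22 cells, and Hspa1b in 8 cells.

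The constitutive chaperones were read in nearly every cell. Hspa8 (chr9:40800984-40810087, plus strand), the housekeeping HSC70 that also strips clathrin from vesicles in neurons, was read in all 46 cells. The Hspa8 level ran over 1554, 3817 and 6786 CPM across Sst-line cells and over 167, 3682 and 6797 CPM across Htr3a-line cells. The difference in means was 0.43, with 11.89 ± 0.55 for Sst-line cells and 11.46 ± 1.19 for Htr3a-line cells. It was 0.24 without replicate 20 of the Htr3a line, 0.22 without replicates 4 and 20, and 0.052 by medians. Low Htr3a-line cells thus carried much of it. Of its exon words, 38.6% are shared with Gm15459, and the gene overlaps 3 small nucleolar RNA genes on the same strand.

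Hsp90ab1 (chr17:45567775-45573271, minus strand), the constitutive HSP90, was likewise read in every cell. The Hsp90ab1 level ran over 627, 1657 and 2538 CPM across Sst-line cells and over 15.6, 1586 and 2943 CPM across Htr3a-line cells. The mean difference of 0.32 became 0.038 without replicate 20 and -0.12 without replicates 4 and 20, and the Htr3a-line SD was 1.62 with them and 0.55 without. The summed counts were 1666 CPM over Sst-line cells and 1710 CPM over Htr3a-line cells, a log2 ratio of -0.038. Hsp90ab1 therefore had no direction between lines that held across these cells.

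Hspa5 (chr2:34771970-34777547, plus strand), the BiP chaperone of the endoplasmic reticulum, gave reads in 22 cells per line and was the most variable of the constitutive genes. The Hspa5 level ran over 0, 727 and 1834 CPM across Sst-line cells and over 0, 615 and 1240 CPM across Htr3a-line cells. The mean log2(CPM + 1) was 9.01 ± 2.20 for Sst-line cells and 8.002 ± 3.10 for Htr3a-line cells, a difference of 1.01. A few near-empty cells set this size. The difference was 0.64 without replicate 6 of the Htr3a line, 1.42 without replicate 17 of the Sst line, 0.36 without replicates 4 and 20 of the Htr3a line, and 0.24 by medians. The summed counts were 787 CPM over Sst-line cells and 628 CPM over Htr3a-line cells, a log2 ratio of 0.33. The sign was positive in each of these.

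Per length of exon, the constitutive chaperones and Hsp90aa1 had the highest medians. The median over all 46 cells was 869 CPM per kb for Hspa8, 538 for Hsp90ab1, 361 for Hsp90aa1 and 166 for Hspa5. Below them stood Atf4 at 62.0 CPM per kb, Gadd45b at 39.8, Dnajb1 at 34.6 and Hsph1 at 27.3. The medians of Hspa1a and Hspa1b were 0. The order of neighbours held in 38 cells for Hspa8 over Hsp90ab1, in 39 for Hsp90ab1 over Hsp90aa1, in 40 for Hsp90aa1 over Hspa5, in 33 for Hspa5 over Atf4 and in 36 for Hsph1 over Hspa1a. Between these the genes were not separable from cell to cell: Atf4 exceeded Gadd45b in 27 cells, Gadd45b exceeded Dnajb1 in 27, and Dnajb1 exceeded Hsph1 in 24 of 46. Atf4 and Gadd45b were ordered differently in the lines, with Atf4 the higher in 18 Sst-line cells and in 9 Htr3a-line cells. Hspa8 was the highest of the 10 genes per length in 20 Sst-line and 17 Htr3a-line cells.

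As counted, the balance between forms was also mostly constitutive. The ratio of Hsp90aa1 to Hsp90ab1 per length ran over 0.243, 0.645 and 1.59 for Sst-line cells and over 0.156, 0.697 and 79.9 for Htr3a-line cells. It exceeded 1 in 1 Sst-line cell and 6 Htr3a-line cells, and the highest value was that of replicate 20. Of the exon words, 51.4% of those in Hsp90aa1 and 13.2% of those in Hsp90ab1 also occur in other genes. How such reads were counted is unknown, so this ratio, the order per length and the shares of CPM may depend on it. Hspa1a, Hspa1b, Dnajb1 and Hsph1 together made up 0% to 14.2% of the CPM of the 8 chaperones in Sst-line cells (median 4.88%) and 0% to 38.2% in Htr3a-line cells (median 3.94%). Replicate 4 of the Htr3a line held the highest share, and without replicates 4 and 20 the highest was 10.5%.

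Among the 54 genes whose mean log2(CPM + 1) was at least 10, the median SD over cells was 0.86. Hsp90aa1 ranked 25th, Hspa8 29th and Hsp90ab1 36th from the lowest SD. These ranks rest in part on 2 cells: without Htr3a-line replicates 4 and 20 the median SD was 0.68, and Hsp90aa1 ranked 6th, Hspa8 29th and Hsp90ab1 8th.

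Gadd45b (chr10:80930073-80932204, plus strand), which is induced by stress, growth signals and neuronal activity and acts in DNA demethylation and kinase signalling, showed the widest separation of the lines. It was read in 17 cells from the Sst line and 20 from the Htr3a line, and 14 Sst-line and 20 Htr3a-line cells held at least 10 CPM. The Gadd45b level ran over 0, 31.3 and 395 CPM across Sst-line cells and over 0, 121 and 641 CPM across Htr3a-line cells. The Sst line was lower at the median and at the top, although the ranges overlapped. The mean log2(CPM + 1) was 4.06 ± 3.10 for Sst-line cells and 6.02 ± 2.68 for Htr3a-line cells, a difference of -1.97 that is smaller than the SD between cells of either line.

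The Gadd45b difference stayed between -2.24 and -1.78 when any 1 cell was left out and between -2.54 and -1.27 under 8 other settings, the first without Htr3a-line replicates 4 and 20 and the second with a pseudocount of 10. The summed counts were 64.7 CPM in the Sst line (63.9 to 65.5) and 158 CPM in the Htr3a line (157 to 159), a log2 ratio of -1.28. Over the 46 cells the CPM of Gadd45b had a Spearman rho of 0.39 with the number of genes read, which was itself lower in the Sst line. The part of genes read in the line difference was not tested. After thinning to 5000000 reads, Gadd45b was still read in 17 of 23 Sst-line and 20 of 22 Htr3a-line cells.

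Atf4 (chr15:80255184-80257541, plus strand), the transcription factor translated when the integrated stress response is active, was read in 21 cells from the Sst line and 22 from the Htr3a line. The Atf4 level ran over 0, 217 and 619 CPM across Sst-line cells and over 0, 131 and 330 CPM across Htr3a-line cells. The Sst line had the higher median and the higher top cells. The mean difference was 0.39, with 6.84 ± 2.61 for Sst-line cells and 6.46 ± 1.81 for Htr3a-line cells. It was 0.093 without replicate 9 of the Htr3a line and 0.70 without replicate 17 of the Sst line. Without Htr3a-line replicates 4 and 20 it was 0.31. The summed counts were 214 CPM over Sst-line cells and 135 CPM over Htr3a-line cells, a log2 ratio of 0.66 that stayed between 0.49 and 0.75 when any 1 cell was left out. The level of Atf4 moved with microglial transcripts, as given with the genes most like it.

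**Figure D2:**
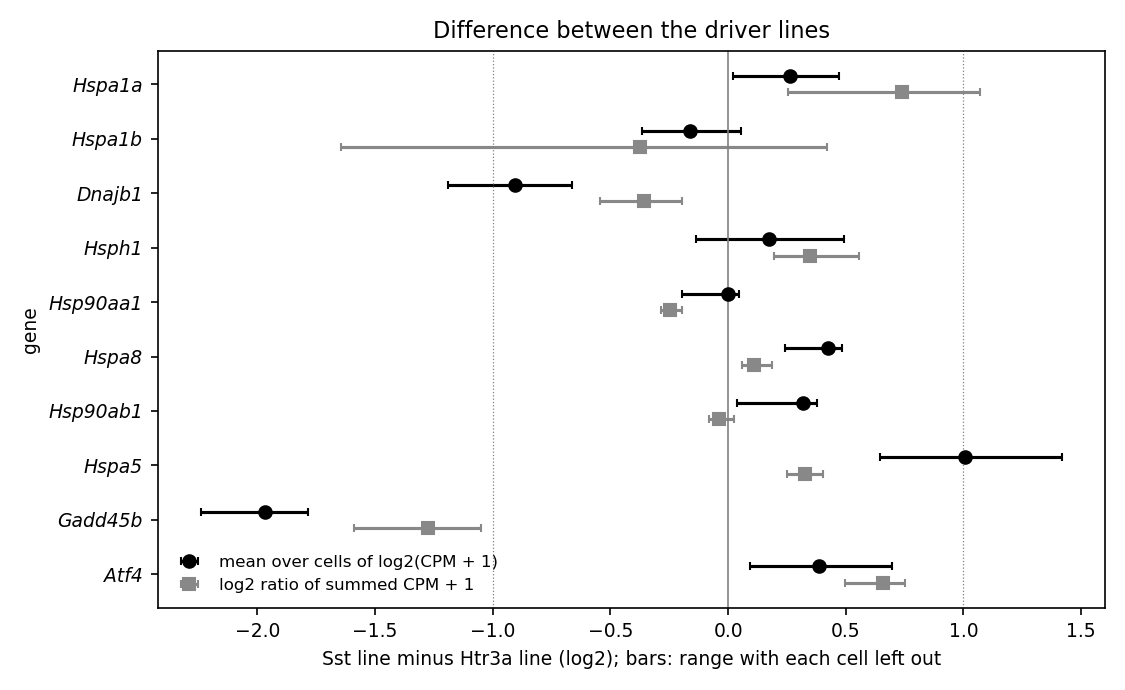
Sst line minus Htr3a line for each gene, as the difference of mean log2(CPM + 1) (black circles) and as the log2 ratio of summed CPM + 1 (grey squares), with bars from the lowest to the highest value when each cell is left out in turn and dotted lines at -1 and 1. Gadd45b lies below -1 on both measures, at -1.97 and -1.28, while the Hspa5 mean difference of 1.01 spans 0.64 to 1.42.

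Of the 9 genes past the minimum, 6 had a higher mean in the Sst line and 3 a lower one. This split was 5 to 4 without Htr3a-line replicates 4 and 20. It counts Hspa1a, Hsph1, Hsp90ab1 and Hsp90aa1, whose signs turned with the setting. The median difference of the 9 genes was 0.26, beside -0.22 for all 11196 genes past the minimum. Hspa5 was the 1 gene higher by at least 1, a size that 4.24% of all genes past the minimum reached, and Gadd45b the 1 gene lower by at least 1, which 14.9% of genes reached. The median SD between cells of all those genes was 2.62, larger than any of the 10 differences. The ranges of the lines overlapped for every gene of the set. The share of all genes with such overlap is not given here, so this is not read as a trait of the set.

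Co-variation over cells was weak for most pairs. Over the 36 pairs of genes past the minimum, the median Spearman rho of CPM was 0.054, beside 0.057 for all pairs of genes past the minimum, and the values ran over -0.23 to 0.53 with 13 pairs below 0. 3 of the 36 pairs reached 0.3, a value that 6.09% of all gene pairs reached: Hspa8 with Hsp90ab1 (0.53), Hspa1a with Atf4 (0.41), and Hsp90ab1 with Hspa5 (0.31). Without Htr3a-line replicates 4 and 20, 3 pairs again reached 0.3, beside 5.87% of all gene pairs, but not the same 3. Hspa8 with Hsp90ab1 then had 0.48 and Hspa1a with Atf4 0.39, Hsp90ab1 with Hspa5 had 0.22, and Hsph1 with Hspa8 reached 0.31. These values share the depth and the number of genes read of each library, and in sparse counts a weak value is not a finding.

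The inducible genes had no shared pattern over cells. The median rho was -0.085 over the 10 pairs of inducible chaperones, 0.31 over the 3 pairs of constitutive chaperones and 0.11 over the 15 pairs between the sets. Without Htr3a-line replicates 4 and 20 the medians were -0.056, 0.22 and 0.083. Dnajb1 and Hsph1, both partners of HSP70, had a rho of 0.30 over all cells, 0.41 for Sst-line cells and 0.26 for Htr3a-line cells, which became 0.22 over all cells and 0.058 over Htr3a-line cells without those replicates. Hspa1a had a rho of -0.10 with Dnajb1 and 0.053 with Hsph1, and 19 cells held Dnajb1 without any Hspa1a. Over all cells Hsp90aa1 had a negative rho with each of the other inducible genes, from -0.23 with Hspa1a to -0.085 with Hspa1b. This sign did not hold by line. With Dnajb1 the rho was -0.32 over Sst-line cells and 0.078 over Htr3a-line cells. Without replicates 4 and 20 the Htr3a-line values were 0.25 with Dnajb1 and 0.15 with Hsph1, but -0.48 with Hspa1a and -0.18 with Hspa1b. The Hspa1a and Hspa1b pair had a rho of 0.60, which cannot be told apart from the sharing of reads between them.

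The constitutive chaperones moved together in the Htr3a line. Hspa8 and Hsp90ab1 had a rho of 0.22 over Sst-line cells and 0.77 over Htr3a-line cells. Hsp90ab1 and Hspa5 had a rho of -0.04 over Sst-line cells and 0.64 over Htr3a-line cells, and Hspa8 and Hspa5 had -0.03 and 0.55. Without replicates 4 and 20 the Htr3a-line values were 0.72, 0.54 and 0.45 for the same pairs, each still above its Sst-line value. Whether the lines differ in this was not tested, and the wider range of levels in the Htr3a line (835 to 6797 CPM of Hspa8 in the 21 cells left, against 1554 to 6786 CPM in the Sst line) stands beside it. On the log2 scale, Pearson's r of Hspa8 with Hsp90ab1 over all cells was 0.74, and it was 0.38 without the 2 cells farthest from the median of Hspa8.

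**Figure D3:**
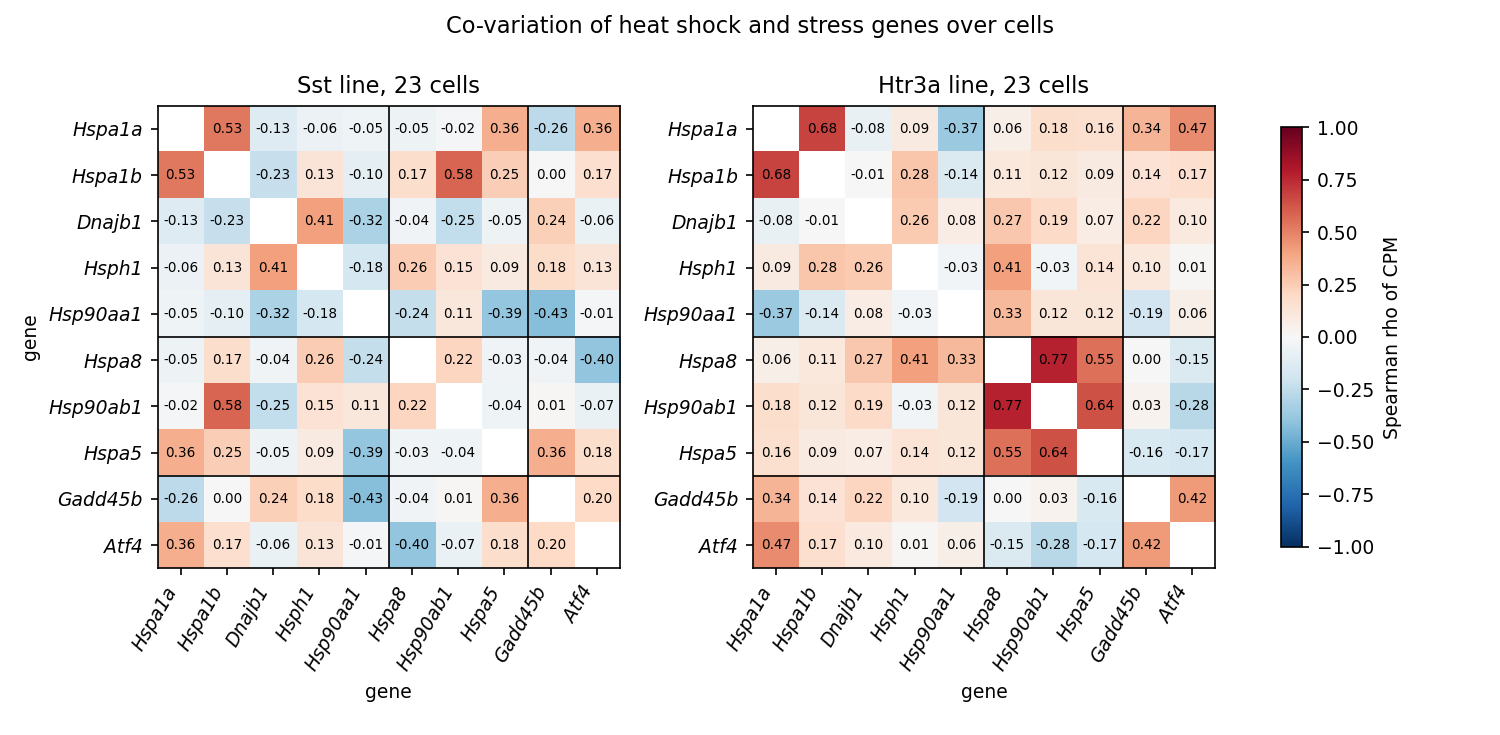
Spearman rho of CPM between the 10 genes over 23 Sst-line cells (left) and 23 Htr3a-line cells (right), in the order inducible, constitutive, regulators, with black lines between the sets and red for positive values. The constitutive block holds 0.22, -0.03 and -0.04 for Sst-line cells and 0.77, 0.55 and 0.64 for Htr3a-line cells.

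The genes most like each member were ranked among 7094 genes read in at least 23 cells. They were picked for their rho and are given as a description. For Hspa8 they were Snap25 (0.73), Ndfip1 (0.69) and Aplp1 (0.69), and for Hsp90ab1 Rab3a (0.63), Vamp2 (0.60) and Seh1l (0.59). Snap25 and Vamp2 are SNARE proteins of synaptic vesicle fusion, and Rab3a is a vesicle GTPase. By line, Hspa8 with Snap25 had a rho of 0.62 over Sst-line cells and 0.82 over Htr3a-line cells, and Hsp90ab1 with Rab3a had 0.62 and 0.66. Hsp90ab1 ranked 82nd among the genes like Hspa8, and Hspa8 ranked 27th among those like Hsp90ab1.

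The genes most like the others were a mixed set. For Hsp90aa1 they were Hddc3 (0.59), Mrpl48 (0.56) and Chchd2 (0.53), of which Mrpl48 and Chchd2 are nuclear genes for mitochondrial proteins. For Dnajb1 they were Hnrnpab (0.65), Phykpl (0.58) and Serinc3 (0.57), and for Hsph1 Wdr37 (0.69), Clcn4-2 (0.58) and Sf3b1 (0.57). For Hspa5 they were Wdr45 (0.62), Sf3b4 (0.61) and Myadm (0.58), and for Gadd45b Cspp1 (0.61), Etfa (0.58) and Dnajc4 (0.54). Hnrnpab, Sf3b1 and Sf3b4 encode RNA-binding and splicing proteins, and Dnajc4 a J-domain protein. Dnajb1 ranked 436th for Hsph1 and Hsph1 352nd for Dnajb1, so many genes were closer to each than its HSP70 partner.

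Atf4 stood apart in the genes most like it, which were microglial. They were C1qa (0.60) and C1qb (0.58), complement genes that microglia make in the brain, and Laptm5 (0.58), a lysosomal membrane protein of blood-derived and microglial cells. The rho of Atf4 with the summed CPM of the 9 microglial genes was 0.56 (0.55 without Htr3a-line replicates 4 and 20), with 0.60 for Sst-line cells and 0.60 for Htr3a-line cells, and all 9 genes had a rho with Atf4 of at least 0.3, from 0.34 for Tmem119 to 0.60 for C1qa. The other members had a rho with the microglial sum from -0.19 (Hspa8) to 0.32 (Hspa1a), with 0.32 for Gadd45b and 0.31 for Hspa5. Over Htr3a-line cells Gadd45b, Hspa1a and Dnajb1 had 0.49, 0.48 and 0.42, and over Sst-line cells 0.16, 0.16 and 0.17. Pearson's r on the log2 scale was 0.51 for Atf4, and 0.37 without the 2 cells farthest from the median. For Hspa5 these values were 0.54 and 0.32. The microglial sum was at least 100 CPM in 18 cells of the Sst line and 16 of the Htr3a line, and its part in the level of Atf4, in the higher Atf4 of the Sst line and in the rho of 0.41 between Atf4 and Hspa1a was not tested.

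**Figure D4:**
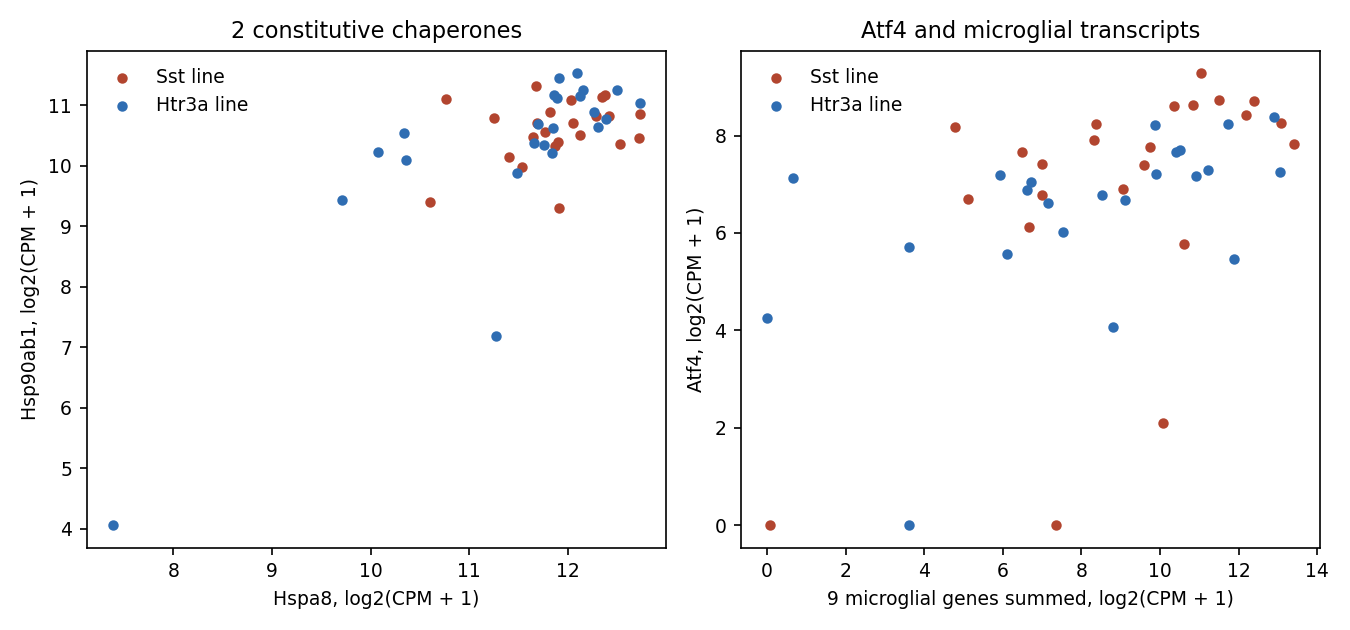
Hsp90ab1 against Hspa8 (left) and Atf4 against the summed CPM of 9 microglial genes (right), all on log2(CPM + 1) axes, with 1 point per cell, Sst line in red and Htr3a line in blue. On the left the cell at the lower left is Htr3a-line replicate 20, at 167 CPM of Hspa8 and 15.6 CPM of Hsp90ab1, and on the right the Spearman rho over all 46 cells is 0.56.

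Hspa8 and Hsp90ab1 ran the other way from microglial transcripts in the Sst line, with a rho of -0.58 and -0.49 in the Sst line, against 0.15 and 0.16 in the Htr3a line. Hsph1 had a rho of -0.52 with the summed CPM of 11 OLM and GABAergic genes, a sum that the abundant Sst transcript leads. Atf4, Dnajb1 and Hspa5 had -0.36, -0.36 and -0.33 with that sum, while Gadd45b had 0.22 and Hsp90aa1 0.16. Dnajb1 and Hsph1 had a rho of 0.36 and 0.35 with the summed CPM of 12 immediate early genes. Hspa5 and Hspa8 had 0.33 and 0.27 with it, and Hsp90aa1 -0.21. Among single genes, picked after their values were seen, Hsph1 had a rho of 0.47 with Fos and Dnajb1 of 0.45 with Egr1.

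Several J-domain genes and HSP90 cochaperones varied with Hspa8. Of all other genes past the minimum, 7.71% had a rho of at least 0.3 with Hspa8. Of 11 other J-domain genes, 6 reached that value, and of 10 HSP90 cochaperones and relatives 6 did. Without Htr3a-line replicates 4 and 20 these counts were 4 and 6, beside 6.05% of all genes. Over all cells the other pathway lists held smaller shares. The largest were 3 of 16 unfolded protein response genes, 2 of 12 integrated stress response genes and 2 of 12 heat shock factors and exchange factors. The same 10 HSP90 cochaperones and relatives reached 0.3 in 0 cases with Hsp90ab1, with Ahsa1 the highest at 0.29. With Hsp90aa1 they did so in 1 case, again Ahsa1, at 0.31. The highest with Hspa8 were Dnaja1, the main J-domain partner of HSC70, at 0.68 (0.55 for Sst-line cells and 0.80 for Htr3a-line cells), and Hsp90b1, the HSP90 of the endoplasmic reticulum, at 0.56 (0.36 and 0.80). For Hspa5, 4 of 16 genes of the unfolded protein response reached 0.3, a value reached by 10.1% of all genes, with Pdia6, a disulfide isomerase, the highest of these at 0.42. Other lists reached 0.3 with Hspa5 in like numbers. These were 4 of 10 HSP90 cochaperones and relatives, 3 of 12 heat shock factors and exchange factors and 3 of 12 immediate early genes. Arc (0.49), Ppp1r15a (0.49) and Trap1 (0.49) lay above Pdia6. For Atf4, 1 of 12 genes of the integrated stress response reached 0.3, which was Atf3 at 0.38, beside 4.72% of all genes. Without Htr3a-line replicates 4 and 20 the counts were again 4 for Hspa5, beside 7.66% of all genes, and 1 for Atf4, beside 4.39%. These genes were named after their values were seen.

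The wider stress pathways differed from list to list. Of 12 heat shock factors, nucleotide exchange factors and mitochondrial chaperonins, 10 had a positive difference and 2 a negative one. Their median difference was 0.58, but 0.34 by summed counts. Of the 12 genes, 4 were higher by at least 1, beside 4.24% of all genes. The largest were Bag5 (1.81), Hsf1 (1.64) and Hsf2 (1.14), and Hsf1, the master factor of the heat shock response, was read in 17 cells from the Sst line and 15 from the Htr3a line with medians of 40.7 and 1.34 CPM. Of 10 HSP90 cochaperones and relatives, 6 were higher and 4 lower, with a median of 0.57 that was 0.16 by summed counts. Hsp90b1 differed by 1.40, with a median of 753 CPM over Sst-line cells and 381 CPM over Htr3a-line cells. Stip1, which bridges HSP70 and HSP90, differed by 0.85 and Chordc1 by -1.18. By summed counts the log2 ratios of Hsp90b1, Stip1 and Chordc1 were 0.73, 0.41 and -0.32.

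Of the 8 other HSP70 genes past the minimum, 4 were higher and 4 lower, with a median of 0.0019. They were led by Hspa12a (-1.60), Hspa2 (-1.18, but -0.33 by summed counts) and Hspa4l (1.01). Of 11 J-domain genes 6 were higher and 5 lower, with a median of 0.050. They were led by Dnaja4 (-1.12, but -0.037 by summed counts), Dnajc7 (0.97) and Dnajc6 (-0.91, but 0.49 by summed counts). Of the 3 small heat shock proteins past the minimum, out of 6, 1 was higher and 2 lower, with a median of -0.41 that was 0.31 by summed counts, and Hspb3 differed by -0.93. These chaperone families therefore split in both directions.

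Hspa5 and Hsp90b1 were not followed by the unfolded protein response as a whole. Of its 16 genes 7 were higher and 9 lower. The median difference was -0.34, beside -0.22 for all genes, and it was -0.033 by summed counts. The largest were Dnajb11, a J-domain partner of Hspa5 (1.64), Sdf2l1 (-1.53) and the transcription factor Xbp1 (-1.11). Of the 12 integrated stress response genes past the minimum, out of 16, 6 were higher and 6 lower, with a median of 0.11. They were led by Eif2s1 (-1.33, but -0.17 by summed counts), the kinase Eif2ak3 (-1.29) and Chac1 (0.92). Chac1, an Atf4 target in other cells, gave reads in 10 cells per line and summed to 64.2 CPM over Sst-line cells and 17.5 CPM over Htr3a-line cells.

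In the lists nearest to Gadd45b in their inducing signals, Trp53, Cdkn1a, Nr4a1 and Egr1 were lower in the Sst line on both measures. Gadd45a and Ier2 changed sign by summed counts. Of 5 GADD45 and DNA damage genes 2 were higher and 3 lower, with a median of -0.25 that was 0.32 by summed counts. They were led by Trp53 (-1.34, but -0.34 by summed counts), its target Cdkn1a (-1.20, and -1.32 by summed counts) and Gadd45a (-0.25, but 0.32 by summed counts). Of 12 immediate early genes 4 were higher and 8 lower, with a median of -0.21, close to the -0.22 of all genes. The largest were Nr4a1 (-1.18), Ier2 (-1.08, but 0.23 by summed counts) and Egr1 (-0.69), each of which fell short of the -1.97 of Gadd45b. By summed counts Nr4a1 had -0.93 and Egr1 -0.58. Gadd45b had a rho of 0.44 with Ier2 over all cells, with 0.37 for Sst-line cells and 0.50 for Htr3a-line cells.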

How the data were processed

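Raw read counts per gene were deposited by the authors for 46 cells, in tables by gene symbol and by Ensembl identifier, and reads had been handled with Trimmomatic, STAR and featureCounts on GRCm38, per the submitters' processing notes. Their versions, and the strand and multi-mapping settings, were not given in the sources used here. A deposited normalized table (signal, counts divided by a factor per cell of 0.144 to 2.09) served as an alternative.

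CPM was the count divided by the total count of the cell, times 1000000, and levels were log2(CPM + 1). Line values were means over cells and CPM of summed counts, and each line is 1 sample, so no test was run. Exact Clopper-Pearson intervals (95%) treat the cells of a line as independent, though no cell is tied to an animal. Exact Poisson intervals (95%) treat reads as independent, though reads carry no molecular identifiers, and leave out the spread between cells. Neither interval measures the spread between animals. Alternatives used edgeR 4.0.16 (TMMwsp) and DESeq2 1.42.0 (poscounts) size factors, a pseudocount of 10, thinning to 5000000 reads, medians, no filter, other detection limits each cell left out, and Htr3a-line replicates 4 and 20 left out together, which for pair counts, SD ranks, shares and list counts was chosen after seeing the data. Python 3.11.15 and scipy 1.17.1 were used, and the calculations were tested on simulated data. Gene models were GENCODE M21 on GRCm38, exon lengths are unions of exons, and shared 31-base words were counted over all annotated transcripts.

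The members and lists were chosen with earlier results of these data known. Named genes were every member, up to 3 genes per list with the largest line difference among those read in at least 12 cells, and the 3 genes most like each member read in at least 23 cells. Replicate numbers follow accession order.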

Additional observations from a re-analysis of the deposited data

How the results depend on the processing

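Of the recomputed values, 1108 stayed within 1 SD between cells of a line difference, 0.1 of a rho or 1.5 times a count. Another 11 moved further. That SD was larger than the line difference of every member, and many values left out only 1 cell. The first count was thus likely from the start and does not show stability. For Hspa1a, a change from 0.26 to -0.24 lay within the limit. Differences of at least 1 (Hspa5, Gadd45b) kept their sign, but 41 smaller values changed sign. These were line differences of Hsp90aa1 (up to 0.045), Hsp90ab1 (-0.12), Hspa1a (-0.24), Hspa1b (up to 0.053) and Hsph1 (down to -0.16), the summed ratios of Hspa1b and of Hsp90ab1 (0.024), and the co-variation medians below. Hspa1b was the least stable gene. Its summed log2 ratio of -0.37 ran from -1.65 without replicate 9 of the Sst line to 0.42 without replicate 5 of the Htr3a line. Its Sst-line cells fell to 1 at 10 CPM or more, and its Htr3a-line cells to 2 both at 5 reads or more and at 10 CPM or more. The inducible co-variation of -0.085 was 0.054 by Pearson's r, 0.035 in the Htr3a line alone and 0.12 with Hsp90aa1 counted as constitutive. The constitutive co-variation of 0.31 was 0.59 by Pearson's r, -0.032 in the Sst line alone, 0.64 in the Htr3a line alone and 0.20 with Hsp90aa1 added. The cause was not tested.

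The median difference of the members was 0.034 after thinning to 5000000 reads, which leaves out 1 shallow Htr3a-line cell, and 0.22 to 0.31 under other scalings. The median of all genes moved from -0.22 to -0.059 with a pseudocount of 10 and to -0.30 after thinning. No animal is named for any cell, which limits every line difference, and sharing of reads between copies limits Hspa1a and Hspa1b. No paired analysis was possible because the labels give no shared replicate numbers.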
